A study of Bos taurus with 12 samples.

Results

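The 9 genes described here, MYO10, FSCN1, DAAM1, CDH1, CDH2, CTNNB1, CTNNA1, TJP1 and ITGB1, encode proteins of the transzonal projections of cumulus cells and of the contacts that these cells make with the oocyte and with each other. They were selected by gene symbol from the annotation of a bovine 2-colour microarray, as 9 of its 15216 named genes. Together they have 13 of the 43794 probes, and all 13 passed the filter on dim probes that left 35898 probes to test. DAAM1 and CDH2 have 3 probes each, numbered here from the brightest, and each other gene has 1.

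Cumulus cells are the granulosa-derived cells that surround the oocyte. They reach it through the zona pellucida with thin, actin-filled processes, the transzonal projections, which resemble filopodia and end in adherens and gap junctions on the oocyte surface. At an adherens junction a cadherin binds its counterpart on the next cell, while beta-catenin and alpha-catenin tie the cadherin tail to actin inside the cell. In the mouse, granulosa cells carry mainly N-cadherin and E-cadherin is found on the oocyte, and the projections are withdrawn as the oocyte resumes meiosis.

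Cumulus cells from slaughterhouse ovaries were sorted by the chromatin of their oocyte's nucleus, the germinal vesicle, into 4 stages from GV0, the least condensed, to GV3. Per the labels, cells of 10 complexes of 1 stage were pooled for each RNA extraction, and the RNA was amplified before labelling. RNA of GV1, GV2 or GV3 cells (4 arrays each) carried the dye Cy5 and was hybridised against GV0 RNA in Cy3, with 1 stage on each of 3 slides and 1 array on each of 4 areas. The design asked how the cumulus transcriptome differs between the later stages and GV0. The labels give no breed or age and do not tie a pool to an animal. The p-values therefore cover the spread among these pools, which may be technical. Stage and slide, and GV0 and Cy3, coincide, so a slide effect, or a dye effect of a probe in a ratio to GV0, cannot be told apart from stage.

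Every value below is a log2 ratio of stage over GV0, or a difference of such ratios, unless it is called a level. A level is the log2 signal of 1 channel after normalisation, and levels of different probes are not comparable. In these bulk pools fewer cells of a type and less RNA per cell cannot be told apart. Between 59.9% and 83.8% of probes lay above the negative controls in Cy5 and between 65.8% and 79.7% in Cy3. The small number of arrays, 4 per stage, limits precision. The granulosa markers FSHR, FOXL2 and CYP19A1 were above background in both channels on 12 of 12 arrays, as were 8 of 9 markers of that list. Within it NR5A1 was lower in GV1 and GV3 (-0.37 and -0.50) and INHA higher in GV2 (0.86). Of the oocyte markers ZP3, FIGLA and MOS were also above background in both channels on 12 of 12 arrays. The oocyte list's mean ratio lay between -0.11 and 0.08 on the 12 arrays. Single markers of that list differed, with MOS lower in each stage (-0.98, -0.93 and -1.08), ZP4 higher in each stage at a GV0 signal above background on 0 of 12 arrays, and NOBOX higher in GV2 (0.31). Array 3 of GV1 stood apart, since the mean ratio of 8 theca and stroma markers was 1.96 there, against -0.19 to 0.00 on the other GV1 arrays. Of those 8 markers PDGFRA passed as higher in GV1 (1.72), and stood at 1.37 and 1.45 in GV2 and GV3 (adjusted p = 0.0723 and 0.0585), while CYP17A1 was lower in GV1 and GV2. Of 6 leukocyte markers 2, 1 and 1 were higher in GV1, GV2 and GV3, among them CD68 in each (0.88, 0.98 and 1.22), and of 5 endothelial markers EGFL7 was lower in each (-0.46, -0.38 and -0.46). Of 4 red blood cell markers ALAS2 and EPB42 were higher in GV2 (0.24 and 0.25), at GV0 signals above background on 3 and 5 of 12 arrays. In GV1 and GV3 0 of these 4 passed. The part of these cell types in the members' results was not tested.

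Of the 9 genes, 2 rose in GV1 (CTNNB1 and MYO10), 2 in GV2 (CTNNB1 and DAAM1) and 1 in GV3 (CTNNB1) against GV0, and 0 fell. The test was limma's moderated test across all kept probes, with an adjusted p under 0.05 counted as a change. Across all 13421 named genes measured, 3.84% rose in GV1, 4.68% in GV2 and 4.36% in GV3, while 5.77%, 5.83% and 6.78% fell. The members' ratios were above 0 for 9 of 9 genes in GV1, 8 in GV2 and 9 in GV3, against 50.3%, 50.2% and 48.4% of all genes. That count includes CDH1, at a signal close to background, and TJP1 at 0.01 in GV3. The members' medians were 0.28, 0.15 and 0.22, against 0.00, 0.00 and -0.01 over all genes. The 3 comparisons share GV0 as their denominator, and by their Cy3 signals the same GV0 pools, so a similar count in each is not 3 separate observations. At an unadjusted p under 0.05 limma passed 4, 2 and 3 of the 9 genes, against 25.4%, 26% and 27% of all genes.

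**Figure D1:**
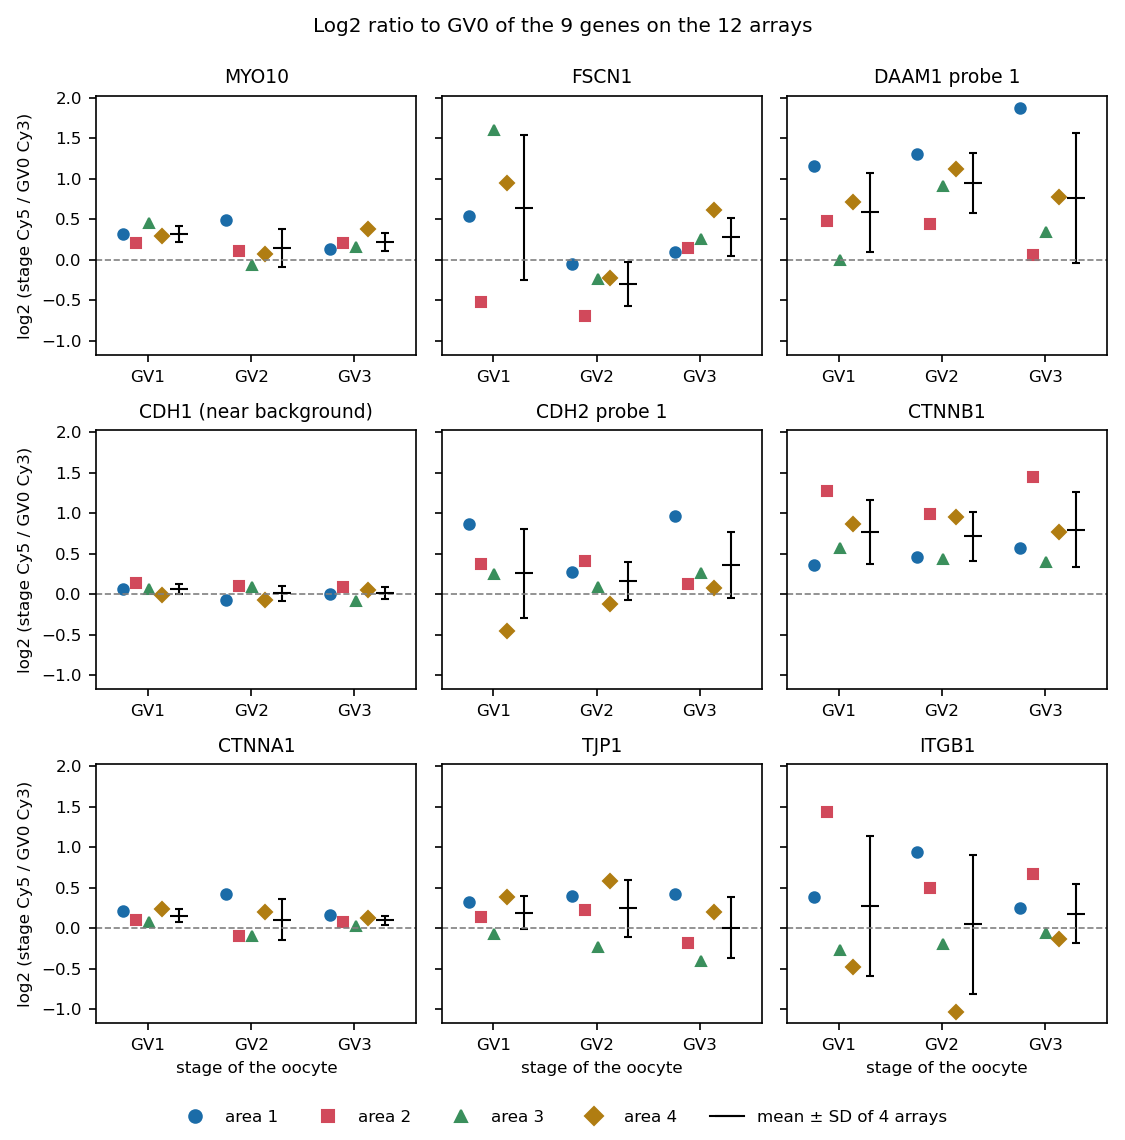
The log2 ratio of stage over GV0 (y axis) on each of the 12 arrays is shown for the 9 genes, by stage (x axis), with colour and shape giving the area number and the black bar the mean ± SD of 4 arrays. DAAM1 and CDH2 are shown by their brightest probe. All 12 points of CTNNB1 lie above 0, those of FSCN1 lie above 0 in GV3 and below 0 in GV2, and CDH1 stays near 0 at a signal close to background.

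MYO10 encodes an unconventional myosin that moves to the tips of filopodia and carries integrins there. Its ratios on areas 1 to 4 were 0.32, 0.21, 0.45 and 0.30 in GV1. They were 0.49, 0.11, -0.06 and 0.07 in GV2, and 0.13, 0.20, 0.16 and 0.38 in GV3. MYO10 was thus above GV0 on 11 of 12 arrays, by a small amount on most. It rose in GV1 by 0.32 (SE 0.08, n = 4 arrays, limma adjusted p = 0.0325), which is 1.25-fold with a 95% interval of 1.10 to 1.42. The values in GV2 (0.15, adjusted p = 0.260) and GV3 (0.22, adjusted p = 0.111) did not pass, although that of GV3 did when array 1 of GV2 was left out of the fit (adjusted p = 0.0454). Area 3 gave the highest of the GV1 ratios, on the array with the high theca and stroma markers, whose part in the result was not tested. Without that array the GV1 ratio was 0.28 (adjusted p = 0.120), and the call was lost. It was also lost with the area number as a random block (adjusted p = 0.0700), and without array 1, 2 or 4 of GV1, at ratios of 0.32, 0.36 and 0.33 (adjusted p = 0.0815, 0.0673 and 0.102).

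FSCN1 encodes fascin, which bundles actin filaments into the straight core of a filopodium. In GV1 its ratios were 0.55, -0.52, 1.60 and 0.95, the widest spread of the 9 genes in that stage (SD 0.89). In GV2 they were -0.05, -0.69, -0.23 and -0.22, and in GV3 0.10, 0.14, 0.26 and 0.61. The 4 GV3 arrays were thus above GV0 and the 4 GV2 arrays below it, while the GV1 arrays lay on both sides. None of the 3 fits against GV0 passed, with 0.65 (SE 0.25, adjusted p = 0.126) in GV1, -0.30 (adjusted p = 0.493) in GV2 and 0.28 (adjusted p = 0.518) in GV3. The GV1 value rested on single arrays. It was 0.33 (adjusted p = 0.428) without array 3, which had the high theca and stroma markers, and 1.04 (adjusted p = 0.0173) without array 2. With the area number as a fixed block, which takes out differences between areas, the GV1 ratio passed (adjusted p = 0.0366). The p-values of that fit do not cover spread that the stages share by area. It passed 29.9%, 30.2% and 30.3% of all probes in GV1, GV2 and GV3, against 11%, 12% and 12.3% in the main fit. With the area as a random block the GV1 ratio of FSCN1 did not pass (adjusted p = 0.147).

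DAAM1 encodes a formin, which nucleates and extends unbranched actin filaments downstream of Dishevelled. The brightest probe had ratios of 1.17, 0.48, -0.0018 and 0.72 in GV1. Its GV2 ratios were 1.30, 0.44, 0.92 and 1.12, and its GV3 ratios 1.88, 0.06, 0.35 and 0.78. DAAM1 was above GV0 on 11 of 12 arrays, and area 1 gave the highest ratio in each stage. It rose in GV2 by 0.95 (SE 0.27, n = 4, adjusted p = 0.0432), which is 1.93-fold with a 95% interval of 1.28 to 2.89. Leaving out array 1, 2, 3 or 4 of GV2 gave ratios of 0.83, 1.11, 0.96 and 0.89, none of which passed (adjusted p = 0.138, 0.0631, 0.0970 and 0.145). Leaving out array 2 or 4 of GV1, or array 3 or 4 of GV3, kept the ratio and ended the call (adjusted p = 0.0597, 0.0568, 0.0519 and 0.0580). In GV1 it stood at 0.59 (adjusted p = 0.178) and in GV3 at 0.77 (adjusted p = 0.0860). Both passed with the area as a fixed block (adjusted p = 0.0162 and 0.00484), but not as a random block (adjusted p = 0.136 and 0.0602). The GV3 value was 0.39 without array 1 of GV3 (adjusted p = 0.295).

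The other probes of DAAM1 were dimmer and had similar means, although neither passed. Probe 2 stood at 0.82, 0.85 and 0.87 in GV1, GV2 and GV3 (adjusted p = 0.141, 0.128 and 0.116), and probe 3 at 0.48, 0.78 and 0.71 (adjusted p = 0.249, 0.0746 and 0.0987). The stage channel was above background on 11 of 12 arrays for each, and the GV0 channel on 7 of 12 for probe 2 and on 5 for probe 3. Their array patterns differed, since area 1 gave the highest mean ratio for probes 1 and 2 (1.45 and 1.69) and the lowest for probe 3 (0.21). Averaged over the 3 probes, DAAM1 passed in GV3 as well (0.78, adjusted p = 0.0339).

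**Figure D2:**
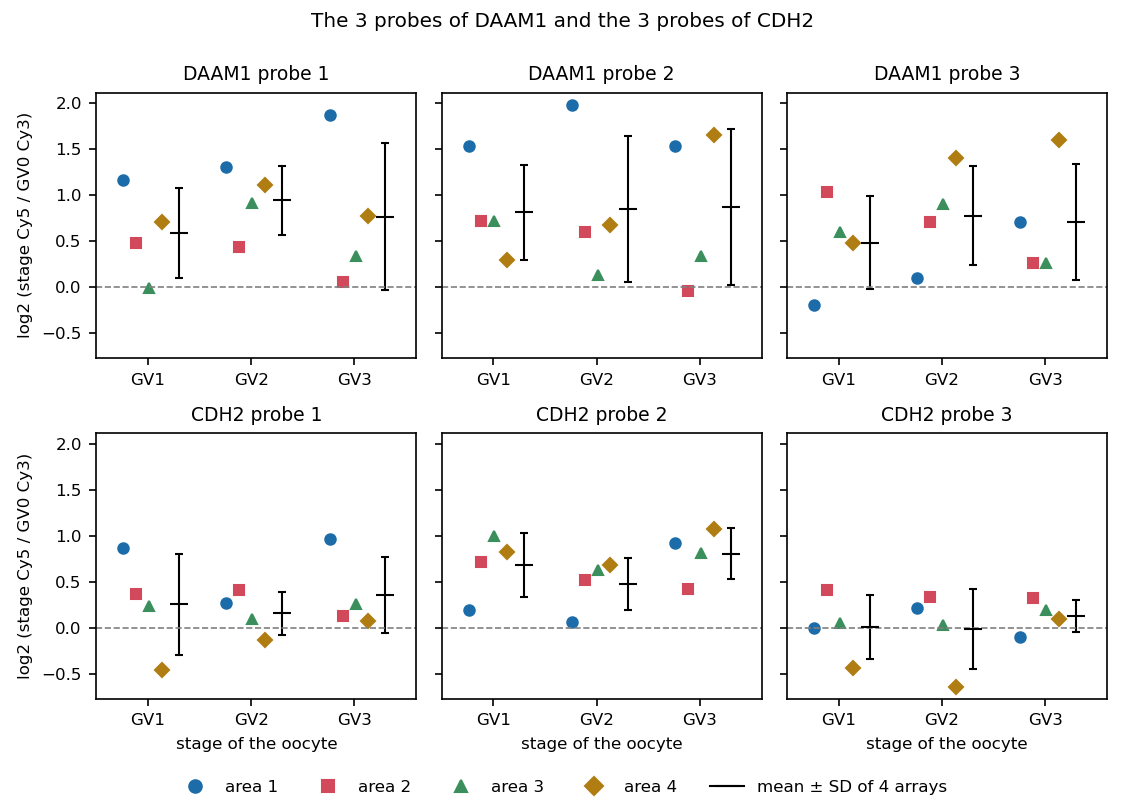
Log2 ratios of stage over GV0 (y axis) are shown by stage (x axis) for the 3 probes of DAAM1 (top) and the 3 probes of CDH2 (bottom), with colour and shape giving the area and the black bar the mean ± SD of 4 arrays. The DAAM1 probes share a mean above 0 but order the areas differently. CDH2 probe 2 lies above 0 on all 12 arrays, whereas probe 3 is centred near 0.

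CDH1, E-cadherin, was barely detected. The stage channel was above background on 3 of 4 GV1 arrays, 1 GV2 array and 1 GV3 array, and the GV0 channel on 1 of 12. Its ratios lay between -0.08 and 0.14, and at this signal they bear on no difference between stages.

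CDH2 encodes N-cadherin, the classical cadherin of granulosa cells in the mouse, and its 3 probes did not give 1 answer. The brightest had ratios of 0.87, 0.37, 0.24 and -0.46 in GV1. Its GV2 ratios were 0.27, 0.41, 0.09 and -0.13, and its GV3 ratios 0.96, 0.13, 0.26 and 0.08. Values were thus above GV0 on 10 of 12 arrays, with area 4 the lowest in each stage. The fitted values of 0.26, 0.16 and 0.36 in GV1, GV2 and GV3 did not pass (adjusted p = 0.426, 0.633 and 0.254). The GV3 value passed with the area as a fixed block (adjusted p = 0.0450), but not as a random block (adjusted p = 0.220). At 0.43, it also passed as the mean of the 3 probes (adjusted p = 0.0178). Under median centring in place of loess the brightest probe stood at 0.66, 0.58 and 0.74 and passed in each stage (adjusted p = 0.0240, 0.0371 and 0.0164). Leaving out single arrays moved the GV1 value between 0.05 and 0.49 without a call. Without array 1 of GV3, which had the ratio of 0.96, the GV3 value was 0.16 (adjusted p = 0.657).

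Probe 2 of CDH2 was above GV0 on 12 of 12 arrays. Its ratios were 0.20, 0.72, 1.00 and 0.83 in GV1, 0.06, 0.53, 0.63 and 0.69 in GV2, and 0.93, 0.42, 0.81 and 1.07 in GV3. By this probe CDH2 rose in GV1 by 0.69 (SE 0.14, adjusted p = 0.0143) and in GV3 by 0.81 (adjusted p = 0.00622). The GV1 call was lost without array 2, 3 or 4 of GV1, at ratios of 0.68, 0.58 and 0.64 (adjusted p = 0.0570, 0.0683 and 0.0725). The GV3 call was lost when area 4 was left out of all stages (0.72, adjusted p = 0.0612). GV2 stood at 0.48 (adjusted p = 0.0550, with 0.0151 for the area as a fixed block and 0.0707 for a random block). Probe 3 stood at 0.01, -0.01 and 0.13 (adjusted p = 0.974, 0.974 and 0.637). The CDH2 probes were all above background on 12 of 12 arrays in both channels. Probe 3 was dim, however, with an unnormalised Cy5 signal of 119 on array 4 of GV2 against a background threshold of 112. Counted by probe, 3, 2 and 2 of the 13 member probes rose in GV1, GV2 and GV3, against 4.52%, 5.52% and 5.2% of all kept probes. None of the 13 fell, against 6.49%, 6.47% and 7.1% of all kept probes.

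CTNNB1 encodes beta-catenin, which links cadherin to alpha-catenin at the junction and is also the transcriptional coactivator of Wnt signalling. Its GV1 ratios were 0.36, 1.27, 0.57 and 0.87. In GV2 they were 0.46, 0.99, 0.44 and 0.96, and in GV3 0.56, 1.45, 0.40 and 0.77. Each of the 12 arrays was above GV0, with area 2 the highest in each stage and areas 1 and 3 the lower ones. CTNNB1 rose by 0.77 in GV1 (SE 0.18, adjusted p = 0.0242), by 0.71 in GV2 (adjusted p = 0.0304) and by 0.80 in GV3 (adjusted p = 0.0186). These are 1.70-fold, 1.64-fold and 1.74-fold, with n = 4 arrays each. Leaving out array 2, 3 or 4 of GV1 gave GV1 ratios of 0.60, 0.83 and 0.73 that did not pass (adjusted p = 0.107, 0.0569 and 0.0993). Leaving out array 1, 2 or 4 of GV2 gave 0.80, 0.62 and 0.63 (adjusted p = 0.0516, 0.117 and 0.126), and leaving out array 2 or 4 of GV3 gave 0.58 and 0.80 (adjusted p = 0.0768 and 0.0659). Across 30 other settings and sample sets the call held in 20, 19 and 25 of them in GV1, GV2 and GV3. The ratio stayed above 0 in each, although leaving out arrays could not change that sign, since all 12 ratios were above 0. Leaving out an array of another stage, or adding an area block, could not move the ratio, only its p-value.

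CTNNA1, alpha-catenin, which binds actin, did not pass in any stage. Its values of 0.16 in GV1, 0.11 in GV2 and 0.10 in GV3 (adjusted p = 0.226, 0.418 and 0.463) had 95% intervals that ended at 0.34, 0.29 and 0.27. Although both catenins bind at the same junction, the CTNNB1 values had intervals that began at 0.37, 0.31 and 0.39. The difference between these genes was not tested. These values hold for loess normalisation. Under median centring alone CTNNA1 stood at 0.61, 0.60 and 0.53 and passed in each stage, and CTNNB1 at 1.20, 1.18 and 1.20.

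TJP1, the scaffold protein ZO-1, which joins junction proteins to actin, had ratios of 0.33, 0.14, -0.07 and 0.39 in GV1. In GV2 they were 0.40, 0.23, -0.23 and 0.59, and in GV3 0.42, -0.18, -0.41 and 0.20. Area 3 was the lowest in each stage, and below GV0. The fitted values of 0.20, 0.25 and 0.01 did not pass (adjusted p = 0.434, 0.317 and 0.978). That of GV2 passed with the area as a fixed block (adjusted p = 0.0253), but not as a random block (adjusted p = 0.226).

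ITGB1, the beta-1 integrin chain, which pairs with many alpha chains to bind the extracellular matrix, had the widest model error among the brightest probes (SE 0.33). Its ratios were 0.39, 1.44, -0.26 and -0.47 in GV1. They were 0.94, 0.50, -0.19 and -1.03 in GV2, and 0.26, 0.67, -0.06 and -0.13 in GV3. Its signal was low, with the stage channel above background on 11 of 12 arrays. The exception was array 4 of GV2, which gave the ratio of -1.03. Areas 1 and 2 lay above GV0 and areas 3 and 4 below it in each stage. The fitted values of 0.28, 0.05 and 0.18 did not pass (adjusted p = 0.644, 0.942 and 0.767). Their intervals spanned -0.46 to 1.01 in GV1, so a change of either sign within those limits remained possible.

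**Figure D3:**
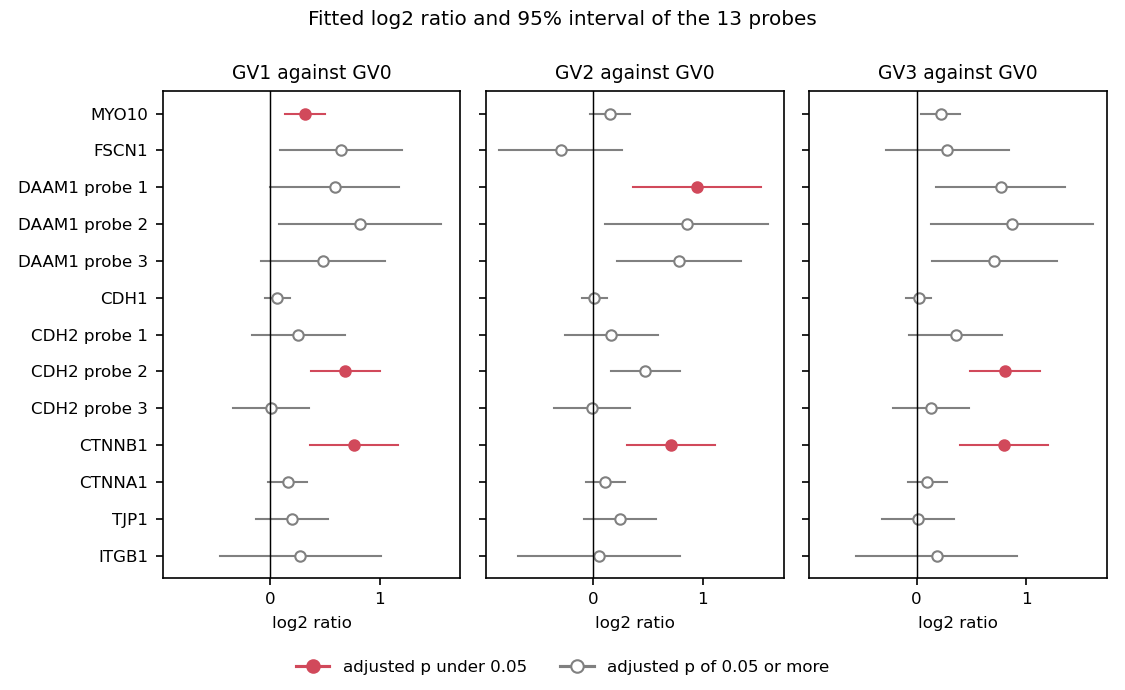
Fitted log2 ratios of stage over GV0 (x axis) with 95% intervals are shown for the 13 probes of the 9 genes (rows), 1 panel per stage, with red marking an adjusted p under 0.05. CTNNB1 is red in all 3 panels, CDH2 probe 2 in GV1 and GV3, MYO10 in GV1 and DAAM1 probe 1 in GV2.

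Several genes had the same area highest or lowest in ratio in each stage, and the GV0 channel also differed between areas. The labels do not say which arrays shared a GV0 pool. Over the kept probes with no flagged spot, the Cy3 levels of arrays of the same area number on different slides correlated at 0.989 to 0.997, and those of different areas at 0.933 to 0.971. The same area number was therefore treated as 1 GV0 pool measured on 3 slides, which gives 4 inferred pools per probe. For DAAM1 probe 1 the levels of GV0 pools 1 to 4 were 7.86, 9.04, 8.76 and 8.22. For CTNNB1 they were 13.91, 13.28, 13.81 and 13.48. The area with the highest ratio, area 1 for DAAM1 and area 2 for CTNNB1, was the one with the lowest GV0 level. TJP1 was lowest in ratio on area 3 and ITGB1 on area 4, where their GV0 levels were highest (12.73 and 8.02). GV0 enters each ratio, so such a pattern is in part arithmetic. The range between the 4 GV0 pools exceeded the largest range between slides of 1 pool for 13 of 13 probes, by 1.46 to 4.50 times. The pools were inferred from Cy3 levels over all kept probes, so this is not particular to the members. Its share over all probes was not computed.

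Stage pools of CTNNB1 varied less than GV0 pools. Its level was 14.34 ± 0.11 in GV1, 14.43 ± 0.10 in GV2 and 14.36 ± 0.24 in GV3, against 13.62 ± 0.29 in GV0 (SD, n = 4 pools each). TJP1 showed the same order of spread, with SDs of 0.20, 0.08 and 0.15 in the stages and 0.36 in GV0. For FSCN1 the spread lay elsewhere. Its GV1 level had an SD of 0.67 and those of GV2 and GV3 0.24 and 0.19, against 0.31 in GV0. In MYO10 area 1 had the lowest level in GV1 and GV3, and also in GV0 (10.84, with the other GV0 pools at 11.27 to 11.44). Of the 13 probes, 6 had a smaller SD in all 3 stages than in GV0, a count whose share over all probes was not computed. The inferred GV0 pools were averaged over 3 slides and stage pools measured once, and the cause of these spreads was not tested.

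**Figure D4:**
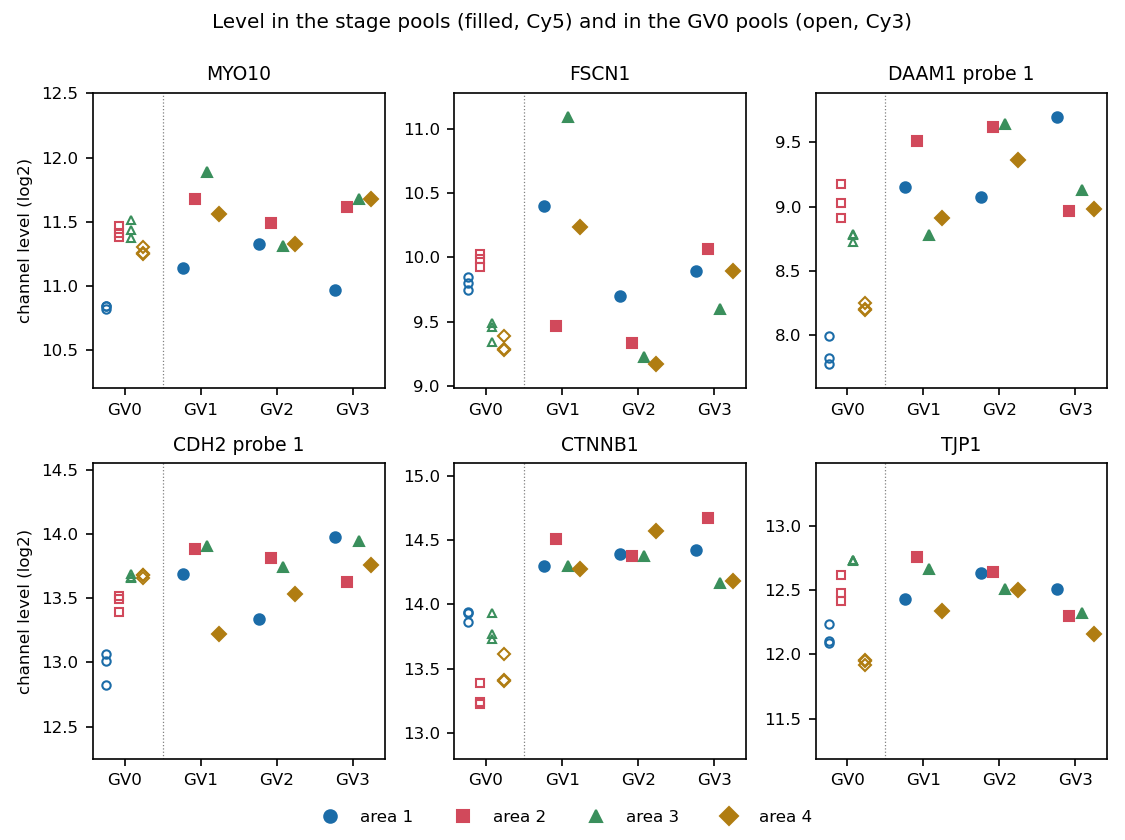
The normalised log2 level (y axis, a range of the same width in each panel) is shown for the GV1, GV2 and GV3 pools (filled symbols, Cy5) and the GV0 pools (open symbols, Cy3, each area on 3 slides) of 6 genes, with colour and shape giving the area. Open symbols of 1 area cluster together, and the 4 areas lie apart by 0.60 in MYO10 to 1.18 in DAAM1.

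Differences between GV1, GV2 and GV3 were tested in the same model. In their estimates the dye cancels, as do GV0 pools shared by area, but slide does not. The model has no term for area, so spread that the stages share by area stays in the SEs and intervals. With the area as a fixed block 0% of all probes passed in each of these differences as well. Of the 9 genes 0 passed in GV2 against GV1, GV3 against GV1 or GV3 against GV2, as did 0% of all genes. At limma's unadjusted p under 0.05 there were 1, 0 and 0 members, against 0.946%, 2.02% and 2.75% of all genes. The 1 was FSCN1, with a GV2 minus GV1 difference of -0.95 (SE 0.36, limma unadjusted p = 0.0239, adjusted p = 1.00). Within areas its differences were -0.60, -0.17, -1.84 and -1.17, below 0 in 4 of 4. GV3 minus GV2 was 0.58 for FSCN1 (adjusted p = 1.00), with 0.15, 0.83, 0.49 and 0.84 within areas.

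For CTNNB1 the stages stood close together. Its differences were -0.05 for GV2 minus GV1, 0.03 for GV3 minus GV1 and 0.08 for GV3 minus GV2. Their 95% intervals ran from -0.62 to 0.51, from -0.54 to 0.60 and from -0.48 to 0.65, so a difference the size of the ratio to GV0 lay outside them. For DAAM1, which passed in GV2 only, the GV2 minus GV1 difference was 0.36 (interval -0.47 to 1.19) and GV3 minus GV2 was -0.18 (interval -1.01 to 0.65). MYO10, which passed in GV1 only, had a GV2 minus GV1 difference of -0.17 (interval -0.43 to 0.09). No gene was therefore shown to differ between one later stage and another.

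Across the 12 arrays the members did not move as 1 group. Over the 36 pairs of genes the correlation of log2 ratios had a median of -0.02 and ran from -0.52 to 0.66, the highest being DAAM1 with TJP1. Arrays of 1 area appear to share a GV0 pool, so these values describe those pools as well as the stages. The genes whose ratios were most like those of CTNNB1 over the 12 arrays were MEX3C (r = 0.99), CNBP (0.96) and ITGB3BP (0.95), of 13339 genes. For DAAM1 they were CRH (0.93), EGFL7 (0.92) and PREPL (0.89), and for MYO10 ILVBL (0.87), ABCA5 (0.84) and NR1H2 (0.83). These values of r describe the order over arrays and not the direction against GV0, since EGFL7 lay below GV0 on 12 of 12 arrays (-0.63 to -0.30) and DAAM1 above it on 11.

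Beyond the members, 62 other genes of filopodia, junctions and focal adhesions were measured of 72 listed. In GV1 2 rose and 3 fell, in GV2 2 rose and 3 fell, and in GV3 4 rose and 2 fell, which is 8.06%, 8.06% and 9.68% of them. Of all genes 3.84%, 4.68% and 4.36% rose and 5.77%, 5.83% and 6.78% fell, so the list was not called more often than genes in general. In the filopodia and actin bundling group (21 measured) ENAH, an actin-tip protein that promotes filament extension, rose in GV1 (1.29), GV2 (1.22) and GV3 (1.52, adjusted p = 0.00493). Its GV0 channel was above background on 6 of 12 arrays. PLS3, an actin-bundling plastin, rose as well (0.65, 0.55 and 0.43, adjusted p = 0.00477, 0.00907 and 0.0248). A dimmer PLS3 probe lay the other way without passing, at -0.20, -0.19 and -0.14 (adjusted p = 0.133, 0.136 and 0.270). For RDX the brightest probe did not pass in any stage, whereas a dimmer one was higher (0.75, 0.68 and 0.73, adjusted p = 0.0351, 0.0478 and 0.0361). Another dimmer RDX probe lay below 0 without passing, at -0.14, -0.29 and -0.07 (adjusted p = 0.311, 0.0559 and 0.636). DAAM2, the relative of DAAM1, fell by 0.24 in GV1 and by 0.28 in GV2.

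Among 7 other cadherins and catenins 0 passed by the brightest probe in any stage, with 0, 1 and 1 at limma's unadjusted p under 0.05. Some dimmer probes differed from this, as for the cadherin gene CDH11 at 0.39, 0.35 and 0.38 (adjusted p = 0.0238, 0.0363 and 0.0238). The brightest CDH11 probe stood at -0.10, -0.16 and 0.22, and another dimmer one, which did not pass, at 0.22, 0.17 and 0.06. A dimmer probe of CTNND1, p120-catenin, passed at -0.31 in each stage. The brightest CTNND1 probe stood at 0.18, 0.12 and 0.17, and another dimmer one at 0.37, 0.12 and 0.33, without passing. The remaining CTNND1 probes lay below 0 without passing. In the group of nectins, zonula occludens proteins and scaffolds (14 measured) NECTIN1, an adhesion protein of the adherens junction, fell by 0.24 in GV1 and by 0.22 in GV2. In GV3 the desmosomal cadherin gene DSG2 rose (0.51) and the junctional adhesion gene F11R fell (-1.37, SE 0.40, adjusted p = 0.0488). A dimmer F11R probe did not pass, at -0.08, -0.17 and -0.17 in GV1, GV2 and GV3 (adjusted p = 0.541, 0.174 and 0.163). Another DSG2 probe stood at -0.47, -0.53 and -0.77 in GV1, GV2 and GV3, and passed in GV3 only (adjusted p = 0.0349). A further DSG2 probe was higher in each stage, at 0.32, 0.39 and 0.34 (adjusted p = 0.00583, 0.00206 and 0.00365). The direction for that gene thus depends on the probe. Among 20 integrin and focal adhesion genes ITGB3 fell in GV1 (-0.31), GV2 (-0.26) and GV3 (-0.31). ITGB8 rose in GV3 (0.59, adjusted p = 0.0459), from a signal above background on 7 of 12 stage channels and 2 of 12 GV0 channels. The medians of the 62 genes were 0.03, -0.02 and -0.02, near those of all genes.

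**Figure D5:**
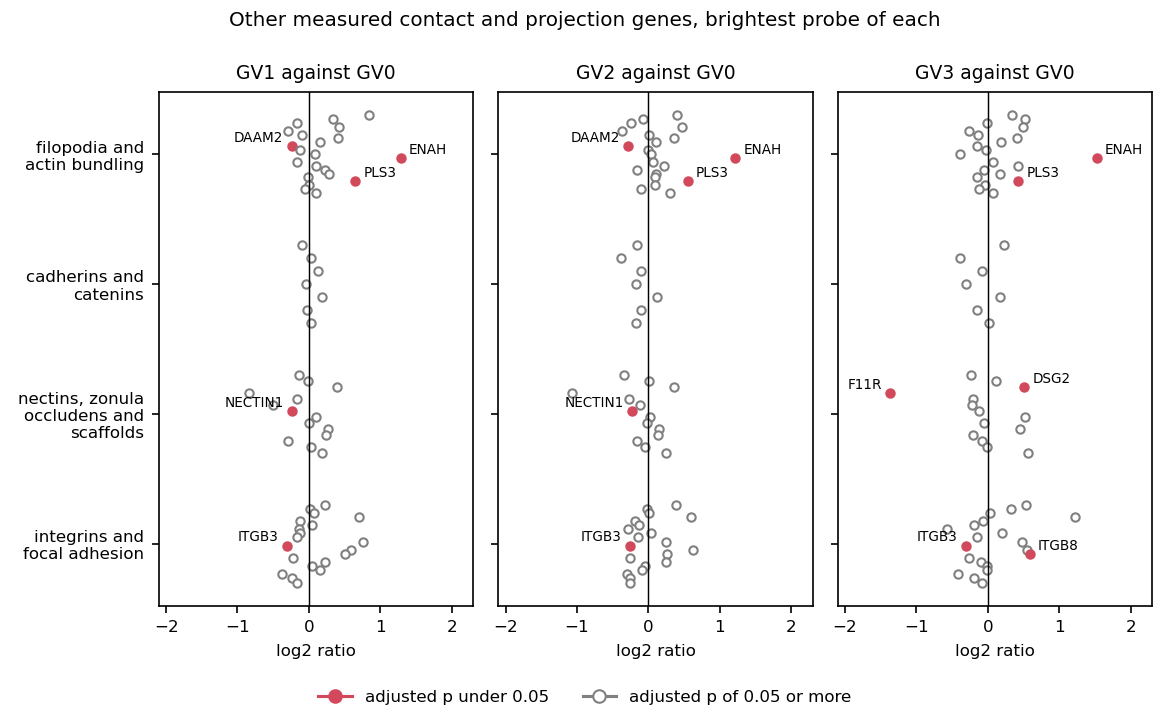
Fitted log2 ratios of stage over GV0 (x axis) are shown for the 62 other contact and projection genes in 4 groups (rows, with genes spread vertically within a group), 1 panel per stage. Red points passed at an adjusted p under 0.05 and carry their gene's name, and ENAH lies furthest to the right in each panel.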

How the data were processed

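RNA of bovine cumulus cells was measured on 12 2-colour arrays. The deposited scanner tables hold spot intensity and local background intensity in Cy5 and Cy3, not normalised, per the file headers. Their flag column of another kind is 0 or 1 per spot, and the authors state no rule for it. The series matrix holds log2 ratios made by the authors in a way not given in the sources used here. They matched loess-normalised median signals without background correction (r = 1.00 on each array), with the direction of stage over GV0, and served as an alternative.

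Mean spot signals were corrected for background by normexp with an offset of 50, and then by loess within each array, in limma 3.58.1 (R 4.3.3, statmod 1.5.0). Flagged spots were left out of the background fit and the test. Channel levels were also scaled between arrays (Aquantile). A probe entered the test if either channel was over the negative controls' mean + 2 SD (153 spots) on at least 3 of 4 arrays of a stage, which removed 7896 probes. Of the probes 21790 carry 1 gene symbol, brought to current names with RefSeq's bovine gene table (14114 symbols current, 982 renamed, 133 unmatched). A gene was read from its brightest kept probe.

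A single limma model of the 12 arrays had 1 coefficient for each stage and 9 residual degrees of freedom. P-values were adjusted by Benjamini-Hochberg over the 35898 kept probes. The model treats arrays as independent, although the stages appear to share GV0 pools. The area numbers pair the arrays: in the 12 same-area pairs the deviations of ratios from their stage's mean had r of 0.494 to 0.736, and the Cy3 levels 0.989 to 0.997, against 0.933 to 0.971 for other areas. Shared GV0 pools are inferred from this, and the labels do not state them. A fixed and a random area block were alternatives, beside other filters, background corrections, normalisations, probe summaries and left-out arrays. Other named genes are those of the contact list that passed, up to 6 per group and comparison, and the 3 most correlated genes of each called member. The members and lists were chosen with earlier results of these data known. Other probes of DSG2, F11R, CDH11, CTNND1, PLS3 and RDX were named after their values were seen.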

Additional observations from a re-analysis of the deposited data

Results flagged for a closer look

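FSCN1 was above GV0 on 4 of 4 GV3 arrays and below it on 4 of 4 GV2 arrays, which is what drew attention to it. The GV3 minus GV2 difference was 0.58 (SE 0.36, 95% interval -0.22 to 1.37). It did not pass limma's test (unadjusted p = 0.138, adjusted p = 1.00) or the fit with the area as a block (adjusted p = 0.503).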

How the results depend on the processing

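Each comparison was repeated under 30 alternatives, and no called result changed sign, although 24 alternative values against GV0 of 3 genes that did not pass (CDH1, ITGB1 and TJP1) did. Each called member lay above GV0 on all arrays of the stage in which it passed, so leaving out arrays could not change its sign. The number of members changed in GV1 (2 of 9) was 1 when each array had to exceed background in both channels, 1 when a fold of 1.5 was also required, and 1 with the area as a random replicate block. It was 4 with the area as a fixed replicate block, 4 with median centring in place of loess, and 0 with flagged spots in the normexp fit, with median spot signals, with the series matrix values and with only that stage's arrays. In GV2 (2 of 9) it was 1 with both channels above background, 4 with median centring, and 0 with flagged spots in the normexp fit, median spot signals, the series matrix or only that stage's arrays. In GV3 (1 of 9) it was 3 with the fixed replicate block, 3 with the mean of all kept probes, 3 with median centring and 0 with only that stage's arrays. The fixed replicate block changed no member's call other than those given with their gene. Leaving out arrays gave 0 to 2 members in each of the 3 stages. The differences between stages gave 0 members throughout. With only that stage's arrays 0% of all probes passed in each stage, so 0 members follows from that fit. The call of MYO10 in GV1 held in 16 of 30 alternatives and that of DAAM1 in GV2 in 14. For all probes in GV1, 11% passed, against 29.9% with the fixed replicate block, 0.46% with flagged spots in the normexp fit, 0.783% with median signals and 0.847% with the series matrix. In GV2 these last 3 settings passed 1.13%, 1.26% and 1.43% of probes, against 12%, and in GV3 14.8%, 2.22% and 2.15%, against 12.3%. The cause of these differences was not tested, except that fewer arrays leave fewer degrees of freedom. Signal over background limits CDH1, the dimmer DAAM1 probes in GV0 and, to a lesser degree, ITGB1 and CDH2 probe 3.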
